A study of Mus musculus with 2 samples.

Results

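Oxidative phosphorylation passes electrons from nutrients along the respiratory complexes I to IV of the inner mitochondrial membrane and uses the resulting proton gradient to drive ATP synthase, complex V. Most subunits are encoded in the nucleus and imported into mitochondria, whereas a small core of complexes I, III, IV and V is encoded by mitochondrial DNA, and complex II is wholly nuclear. Hepatocytes are rich in mitochondria. The genes described here were all gene rows whose symbol begins with Nduf, Uqcr, Cox4 to Cox8, Atp5, mt-Nd, mt-Co, mt-Cytb or mt-Atp, or is Sdha, Sdhb, Sdhc or Sdhd, with pseudogenes left out. The rule gave 106 of 31053 gene rows, of which 93 were nuclear and 13 mitochondrial. The nuclear rows comprised 36 complex I subunits, 8 complex I assembly factors (Ndufaf genes), 4 subunits of complex II, 8 of complex III, 20 of complex IV, 16 rows of complex V and Atp5s, a coupling factor. The mitochondrial genes held 7 members of complex I, 1 of complex III, 3 of complex IV and 2 of complex V. One nuclear member, the testis isoform Cox8c, had no UMI, and 4 had fewer than 10 UMIs over the whole library.

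Hepatocytes came from 3 female BL6 (C57BL/6) mice, injected at 6 to 8 weeks of age and killed 6 days later. All 3 had received, by hydrodynamic tail-vein injection, the SB13 transposase and a transposon in which the ubiquitous CAGGS promoter drives NRAS followed by IRES-mVenus, so that every mouse carried mVenus. Oncogenic NRAS(G12V) was given to 2 mice and NRAS(G12V/D38A), which has a second change in the effector loop, to 1 control mouse, and mVenus-positive cells were sorted, hashtagged and pooled for 10x 3′ single-cell RNA sequencing. The deposited key gives hashtag 1 to the NRAS(G12V/D38A) mouse and hashtags 2 and 3 to NRAS(G12V) mice, whereas the methods of the study give hashtag 3 to the NRAS(G12V/D38A) mouse and hashtags 1 and 2 to NRAS(G12V). Mice are therefore named by hashtag, and none of the tests between cell groups within mice depends on the pairing.

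Of 13151 barcodes, 10220 had at least 1000 UMIs, at least 500 genes and under 20% mitochondrial UMIs. A barcode was taken as a hepatocyte when Alb, Apoa1, Apoa2, Ttr and Fgb made up at least 1% of its UMIs, which held for 8510 barcodes (83.3%), 2306 of them deep (at least 10000 UMIs) and 6204 shallow. Hashtag calls were sparse: 7386 barcodes had no call, including 851 deep and 5257 shallow hepatocytes, and hashtag 3 was called on only 25 deep hepatocytes. The labels call the cells hepatocytes, but endothelial, dendritic, T or NK, B, macrophage and stellate cells were also found by their markers, and 2.34% of deep and 6.37% of shallow hepatocyte barcodes also passed the gate of another type. The share was larger in the shallow barcodes that entered tests, at 22.8%, 22.8% and 54.3% in hashtags 1, 2 and 3 with little Nras, against 0.91% without a call. Among the 20 deep hepatocytes of hashtag 3 with little Nras the share was 50%, so that hashtag 3 is the weakest of the 3 mice for hepatocytes. The limit of 20% mitochondrial UMIs is itself set on the 13 mitochondrial genes and removed 247 deep and 329 shallow hepatocyte barcodes. In the Nras and depth comparisons, values of the mitochondrial genes are therefore also given under a higher limit or none. For cell types they are given at the limit of 20% alone.

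Promoters of nuclear members were read for the 8-base core GCGCATGC of the site of nuclear respiratory factor 1 (NRF1), a regulator of nuclear genes for mitochondrial proteins. Of 92 nuclear symbols, 74 had a promoter in the RefSeq table (build GRCm38.p6). The core stood on either strand within 250 bases before the start site in 9 of these 74 (12.2%), against 692 of 27025 genes with a promoter (2.56%). The 9 were Atp5g2, Atp5k, Atp5l, Cox6a1, Ndufa11, Ndufa6, Ndufa8, Ndufaf4 and Sdhb. The sequences of 4 members are shown as examples with and without the motif and with and without a call in the Nras comparison below: Atp5k and Ndufa6 hold the motif and were lower at high Nras, Cox6a1 holds it and did not pass the test, and Ndufv3 was lower at high Nras with no match in this window. Each is the 250 bases before the start site, 5′ to 3′ on the gene's strand, and capitals mark the motif. Where the run of capitals has 10 bases, it holds 2 overlapping matches, 1 on each strand.
Atp5k, chr5:108434400-108434649, minus strand: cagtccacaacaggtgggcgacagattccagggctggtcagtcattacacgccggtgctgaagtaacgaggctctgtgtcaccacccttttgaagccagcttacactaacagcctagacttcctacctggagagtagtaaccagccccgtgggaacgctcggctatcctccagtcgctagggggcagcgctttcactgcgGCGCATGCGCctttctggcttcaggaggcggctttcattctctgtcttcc
Ndufa6, chr15:82354292-82354541, minus strand: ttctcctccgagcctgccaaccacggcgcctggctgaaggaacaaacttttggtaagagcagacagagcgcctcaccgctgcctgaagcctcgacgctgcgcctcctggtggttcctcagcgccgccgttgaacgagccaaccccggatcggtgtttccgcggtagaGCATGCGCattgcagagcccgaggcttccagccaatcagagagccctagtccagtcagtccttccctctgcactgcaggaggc
Cox6a1, chr5:115348959-115349208, minus strand: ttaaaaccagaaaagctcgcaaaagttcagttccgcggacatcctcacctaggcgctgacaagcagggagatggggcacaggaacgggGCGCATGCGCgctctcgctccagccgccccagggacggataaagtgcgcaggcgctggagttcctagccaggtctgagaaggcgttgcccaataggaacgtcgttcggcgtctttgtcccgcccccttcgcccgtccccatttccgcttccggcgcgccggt
Ndufv3, chr17:31519865-31520114, plus strand: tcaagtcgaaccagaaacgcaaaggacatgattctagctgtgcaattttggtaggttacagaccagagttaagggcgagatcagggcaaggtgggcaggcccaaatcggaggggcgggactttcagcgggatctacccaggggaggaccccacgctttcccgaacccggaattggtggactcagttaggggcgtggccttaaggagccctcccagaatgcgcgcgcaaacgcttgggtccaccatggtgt

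Levels in deep hepatocytes with little Nras (under 200 Nras CPM) differed widely among the members. CPM are UMIs scaled to a total of 1000000 gene UMIs, where each molecule counts once at its 3′ end and no length correction applies. The mitochondrial genes led: mt-Atp6, a subunit of the proton channel of ATP synthase, stood at 17883, 19759 and 15134 CPM in hashtags 1, 2 and 3. mt-Co3 and mt-Co1, core subunits of cytochrome c oxidase, followed at 12183 to 16117 CPM and 11456 to 15569 CPM. At the low end were mt-Atp8 at 72.9 to 76.1 CPM and mt-Nd6, the only member on the light strand of mitochondrial DNA, at 18.3 to 20.3 CPM. mt-Atp8 overlaps mt-Atp6, and mt-Nd4l overlaps mt-Nd4, on the same strand, so how reads were divided within each pair is uncertain. The highest nuclear members were Cox4i1, the regulatory subunit 4 of complex IV, at 1440, 1347 and 1535 CPM, and Ndufa4, now counted as a complex IV subunit, at 1048, 946 and 1184 CPM. Cox8a, Atp5h, Uqcrq and Uqcrh came next, at 682 to 968 CPM. Lower levels were found for Ndufs1, which carries iron-sulfur clusters of complex I, at 27.9 to 29.3 CPM, and Sdha, the flavoprotein of complex II, at 88.4 to 110.3 CPM. Part of Cox4i1, Ndufa13, Ndufb2, Ndufb8 and Ndufb9 overlaps another protein-coding gene model on the same strand, so their counts are less certain.

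The first question was whether the members followed the dose of the construct within hepatocytes, read here from the Nras row. mVenus UMIs were found in 15.4% of hashtag 1 cells at baseline Nras, 85.4% at intermediate Nras and 95.8% at 1000 to 3000 Nras CPM. Deep hepatocytes were summed per mouse at under 200, 200 to 1000 and at least 1000 Nras CPM (baseline, intermediate and high), which gave 143, 41 and 47 cells for hashtag 1 and 757, 207 and 165 cells for hashtag 2. Hashtag 3 had only a baseline sum, of 20 cells. Under the deposited key hashtag 1, and so 1 of the 2 high sums, carries NRAS(G12V/D38A), whereas under the methods both are NRAS(G12V), so the comparison is of Nras level and not of oncogenic NRAS. The pooled share of nuclear members among nuclear-encoded UMIs was lower at each higher level in both mice: 3.27%, 2.83% and 2.63% in hashtag 1, and 2.86%, 2.70% and 2.65% in hashtag 2. The pooled share of the mitochondrial genes among all UMIs had no such order in hashtag 1, at 8.43%, 9.30% and 8.33%, and in hashtag 2 stood at 9.29%, 9.24% and 8.48%. Deep hepatocytes without a hashtag call, which did not enter the test, gave nuclear shares of 3.05% at baseline, 2.84% at intermediate and 2.72% at high Nras.

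**Figure D1:**
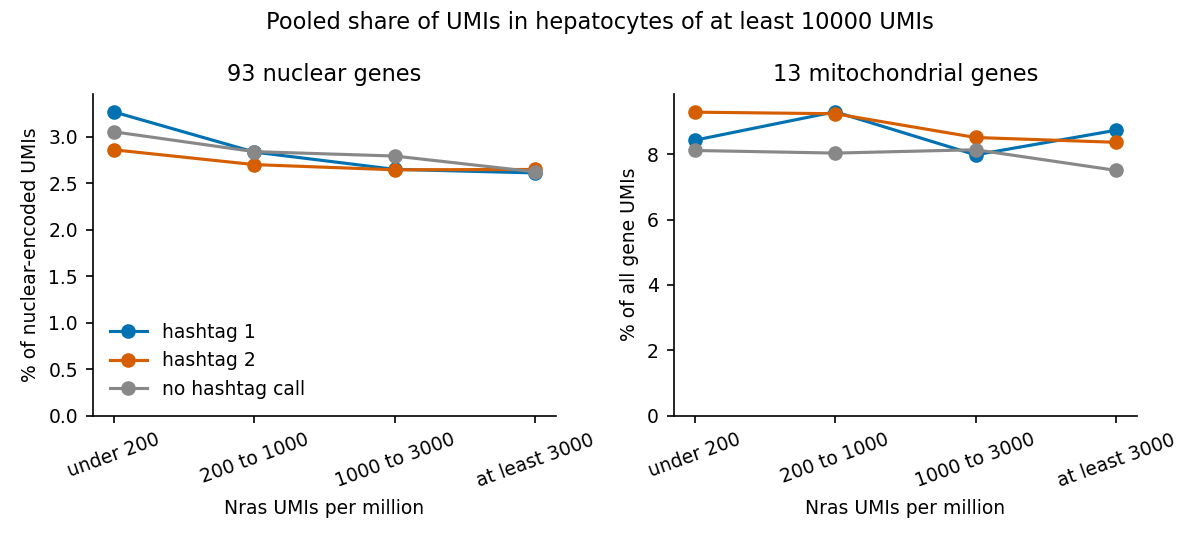
Pooled share of UMIs from the 93 nuclear genes (left, percent of nuclear-encoded UMIs) and the 13 mitochondrial genes (right, percent of all gene UMIs) in deep hepatocytes by Nras level in CPM. Each line joins 1 hashtag or the barcodes without a call; the nuclear share in hashtag 1 goes from 3.27% to 2.61% and the mitochondrial share has no common order.

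In the fit over all genes (edgeR quasi-likelihood test with mouse as a block, Benjamini-Hochberg adjustment, threshold 0.05), 82 nuclear members were tested at high against baseline Nras. None was higher, 18 (22.0%) were lower, and 76 of the 82 fold changes were negative, with a median log2 fold change of -0.22. Over all 7037 genes tested, 17.7% were lower and 16.1% higher, with a median of -0.002, so the share of members called lower was near that of all genes while none was called higher. At an unadjusted p under 0.05, 35 nuclear members were lower and 0 higher, and DESeq2 called 9 lower and 0 higher, where it called 632 of all 7037 genes lower. With barcodes that pass another gate left out, 28 nuclear members were lower, where 1383 of all 6981 genes were lower. At intermediate Nras only Uqcrq was lower, where 4.89% of all genes were lower.

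Complex III held the largest change, in Uqcrq, which encodes a small supernumerary subunit. Its level was 831, 709 and 783 CPM at baseline in hashtags 1, 2 and 3, 518 and 521 CPM at intermediate Nras in hashtags 1 and 2, and 440 and 435 CPM at high Nras. Every high sum lay below every intermediate sum, and every intermediate sum below every baseline sum. The log2 fold change was -0.58 ± 0.11 (SE) at intermediate Nras (edgeR, adjusted p = 0.014) and -0.82 ± 0.11 at high Nras (edgeR, adjusted p = 0.00062). Barcodes without a hashtag call gave 724 CPM at baseline and 414 CPM at high Nras. The other 7 members of complex III did not pass the test, among them Uqcrh (log2 fold change 0.03), the core subunit Uqcrc1 (-0.26) and the Rieske iron-sulfur protein Uqcrfs1 (-0.30).

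Complex I had 10 of 36 members lower. Ndufv3, an accessory subunit of the NADH-oxidizing arm, had 166, 151 and 131 CPM at baseline and 108 and 92.3 CPM at high Nras (log2 fold change -0.68 ± 0.11, edgeR, adjusted p = 0.0018). Ndufa5, an accessory subunit, had 137, 112 and 194 CPM at baseline and 71.6 and 84.6 CPM at high Nras (log2 fold change -0.66 ± 0.13, edgeR, adjusted p = 0.0062). Ndufa6, whose promoter is shown above, had 593, 549 and 606 CPM at baseline and 393 and 401 CPM at high Nras (log2 fold change -0.54 ± 0.10, edgeR, adjusted p = 0.0044). In each of these 3 genes the high sums lay below all baseline sums. Of the core subunits, Ndufs1 (log2 fold change -0.21) and Ndufv1 (-0.34) did not pass, nor did any of the 7 assembly factors tested.

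In complex II, which also belongs to the TCA cycle, 2 of 4 members were lower. Sdhd, a membrane anchor, fell from 192, 160 and 212 CPM to 142 and 123 CPM (log2 fold change -0.42, edgeR, adjusted p = 0.015), and Sdha from 90.9, 88.4 and 110.3 CPM to 69.4 and 70.8 CPM (log2 fold change -0.37, edgeR, adjusted p = 0.020). In complex IV only Cox6c was lower, of 12 tested (log2 fold change -0.37, edgeR, adjusted p = 0.044). Cox4i1 (-0.04), Cox6a1 (-0.01), Cox6b1 (-0.05), Cox7b (-0.06), Cox5a (-0.11), Cox5b (-0.21), Cox7a2 (-0.27), Cox8a (-0.22), Ndufa4 (-0.29) and Cox7a2l (0.10) did not pass.

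In ATP synthase 4 of 15 tested rows were lower, and all 15 fold changes were negative. Atp5k, the e subunit of the membrane part, had 174, 132 and 187 CPM at baseline and 103 and 105 CPM at high Nras (log2 fold change -0.55 ± 0.13, edgeR, adjusted p = 0.014). Atp5e, the epsilon subunit, had 645, 488 and 648 CPM at baseline and 390 and 404 CPM at high Nras (log2 fold change -0.51 ± 0.12, edgeR, adjusted p = 0.013). The 3 genes for the same proton-carrying c subunit had unequal values: Atp5g1 passed the test at -0.48 (edgeR, adjusted p = 0.017), and Atp5g2 (-0.08) and Atp5g3 (-0.13) did not. The catalytic subunits Atp5a1 (-0.19) and Atp5b (-0.07) did not pass either. Of the 9 members with the NRF1 core in the promoter window, 2 were lower, Atp5k and Ndufa6, against 18 of all 82 nuclear members tested.

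**Figure D2:**
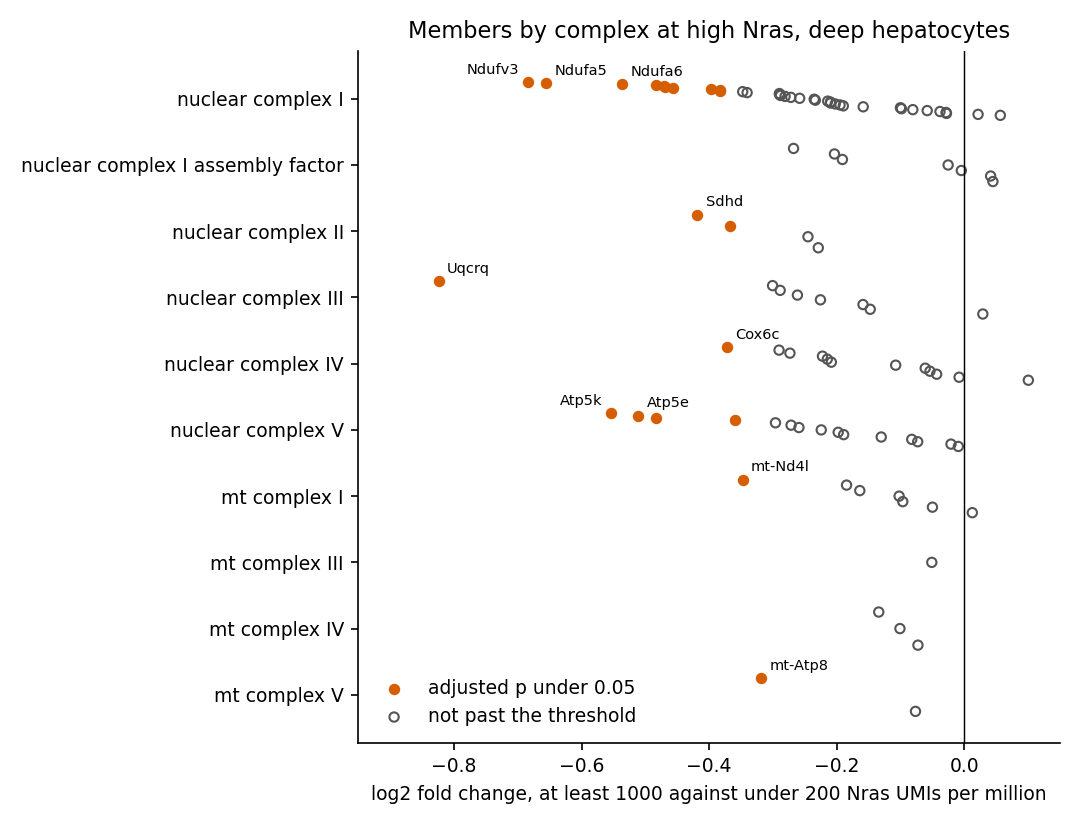
Log2 fold change of each tested member at high (at least 1000 Nras CPM) against baseline (under 200 CPM) Nras in deep hepatocytes, by genome and complex. Filled points passed the test (edgeR, adjusted p under 0.05): 18 nuclear members, led by Uqcrq at -0.82, and the mitochondrial mt-Nd4l and mt-Atp8; all filled points lie below 0. Of all genes tested, 17.7% were lower.

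Of the 13 mitochondrial genes 2 were lower and 0 higher at high Nras, with a median log2 fold change of -0.10. Over all genes 17.7% were lower, so the share of mitochondrial genes called lower was near that of all genes. mt-Nd4l had 667, 695 and 567 CPM at baseline and 570 and 513 CPM at high Nras (log2 fold change -0.35, edgeR, adjusted p = 0.041), so the sums overlapped. mt-Atp8 had 72.9, 76.1 and 74.3 CPM at baseline and 58.7 and 62.1 CPM at high Nras (log2 fold change -0.32, edgeR, adjusted p = 0.037). Both are the smaller partners of overlapping pairs. The count depended on the limit for mitochondrial UMIs: with cells of up to 50% it was 9 of 13 and with no limit 13 of 13, at a median of -0.55, whereas DESeq2 called 0. Over all genes 1338 of 7041, 1352 of 7026 and 632 of 7037 were lower, in the same order. The sign of the mitochondrial median was not stable, at 0.12 with cells of at least 1000 UMIs and 0.01 without hashtag 2.

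Depth moved with the Nras level. Median UMIs per cell rose from 27868 at baseline to 63065 at high Nras in hashtag 1 and from 41417 to 62945 in hashtag 2, and within baseline cells of hashtag 1 the nuclear share was 3.98% in cells of 10000 to 30000 UMIs and 3.0% above. The 76 baseline cells of hashtag 1 with 10000 to 30000 UMIs had a median mitochondrial share under 2%, against 9.08% in hashtag 2. At high Nras hashtag 1 had only 7 cells in this range, so its baseline sum held a different mix of cells. Among cells of at least 30000 UMIs the nuclear share was 3.0% at baseline and 2.60% at high Nras in hashtag 1, 2.84% and 2.65% in hashtag 2, and 2.85% and 2.67% without a call. The part of the baseline cells with few mitochondrial UMIs in the fits was not tested. With cells of 20000 to 60000 UMIs alone, 15 nuclear members were lower, at a median of -0.19, where 14.8% of all genes were lower. The hepatocyte markers used for the gate also differed, making up 7.59% of UMIs at baseline and 5.25% at 1000 to 3000 Nras CPM in hashtag 1, and their part in the result was not tested.

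Genes around the respiratory chain, from lists chosen with earlier results known, were fitted in the same model. Among electron carriers and entry enzymes 5 of 8 were lower and 0 higher: Etfdh (log2 fold change -0.90), Etfa (-0.88) and Etfb (-0.86), which carry electrons from fatty acid oxidation to ubiquinone, the glycerol phosphate dehydrogenase Gpd2 (-0.54) and Coq9 (-0.46), needed for ubiquinone synthesis. Cytochrome c, Cycs, stood at 0.05. In the TCA cycle 2 of 14 were lower, Suclg2 (-1.01) and Idh2 (-0.81), and Cs (-0.07) did not pass. Of 25 assembly factors outside the rule, Sdhaf4 (-0.83) and Sdhaf1 (-0.55), both for complex II, were lower and Sco2 (0.37), a copper chaperone of complex IV, was higher. Of 8 genes for coupling and exchange, Vdac2 (0.67), an outer-membrane channel, and Slc25a4 (0.46), an ADP/ATP carrier, were higher. Of 8 biogenesis genes tested, Esrra (0.50) and Tfb2m (0.41) were higher, and of 76 mitochondrial ribosomal protein genes 5 were higher and 2 lower.

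Depth was examined next, because most hepatocyte barcodes were shallow. Deep hepatocytes were compared with shallow ones at under 200 Nras CPM, in 3 mice (143, 757 and 20 deep and 193, 228 and 315 shallow cells in hashtags 1, 2 and 3). This comparison shares its deep cells with the Nras comparison, so agreement between them is not counted as support. Of 83 nuclear members 59 were lower in deep cells and 0 higher (edgeR, median log2 fold change -0.54), against 15.4% lower and 16.5% higher over all 7609 genes. At an unadjusted p under 0.05, 1 nuclear member was higher, and DESeq2 called 0 higher. All 15 tested rows of ATP synthase were lower, with 25 of 36 in complex I, 3 of 4 in complex II, 5 of 8 in complex III, 7 of 12 in complex IV and 4 of 8 assembly factors. The mitochondrial genes went the other way, with 12 of 13 higher in deep cells at a median of 1.31. With no mitochondrial limit 0 of them were higher, at a median of -1.04, where 1220 of all 7289 genes were higher. Without hashtag 1 the nuclear count was 30 and without hashtag 2 it was 37, and with the hepatocyte gate at 5% it was 0 (8 at an unadjusted p under 0.05). Over all genes 560 of 7269, 566 of 7310 and 72 of 7626 were lower in these fits. Without the barcodes that also passed another gate, 71 of 84 nuclear members were lower at a median of -0.82, where 23.5% of all genes were lower, and 12 mitochondrial genes were higher.

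Uqcrq had 831, 709 and 783 CPM in deep and 1896, 1655 and 1628 CPM in shallow cells (log2 fold change -0.97 ± 0.09, edgeR, adjusted p = 0.00091). Atp5j, coupling factor 6 of ATP synthase, had 563, 449 and 628 CPM in deep and 1338, 1198 and 1246 CPM in shallow cells (log2 fold change -1.03 ± 0.10, edgeR, adjusted p = 0.00091). Sdhb, the iron-sulfur subunit of complex II, had 214, 152 and 207 CPM in deep and 449, 389 and 444 CPM in shallow cells (log2 fold change -0.99 ± 0.10, edgeR, adjusted p = 0.0013). In each of these genes all deep sums lay below all shallow sums. The largest fold changes were in 2 assembly factors of low level: Ndufaf1, with 14.5 to 16.4 CPM in deep and 39.3 to 55.9 CPM in shallow cells (log2 fold change -1.35 ± 0.25, edgeR, adjusted p = 0.0091), and Ndufaf6 (log2 fold change -1.12). Cox4i1 (0.12), Cox6a1 (0.06) and Cox7a2l (0.11) did not pass. Cox4i1 had 1347 to 1535 CPM in deep and 1463 to 1574 CPM in shallow cells, so these ranges overlapped.

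The shallow barcodes were of 2 kinds, split at 2% mitochondrial UMIs after the data were seen. Over all barcodes, 4152 shallow hepatocytes held under 2% (pooled 0.33%) and 805 held more (pooled 7.50%), against 8.80% in deep cells. The kind with few mitochondrial UMIs had the highest nuclear share, 5.60%, 5.32% and 5.87% in hashtags 1, 2 and 3 and 5.73% in 3826 barcodes without a call. The deep cells stood at 3.27%, 2.86%, 3.37% and 3.05% in the same order, with no overlap. Malat1, an RNA retained in the nucleus, made up 0.036% of UMIs in the kind with few mitochondrial UMIs and was absent from 67.3% of its barcodes, against 1.08% of UMIs and 7.41% of barcodes in deep cells. The 5 hepatocyte markers made up 3.05% against 9.34% of UMIs. The part of these differences in the nuclear share was not tested.

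Against shallow cells under 2%, 73 of 83 nuclear members were lower in deep cells (edgeR, median log2 fold change -0.85), where 22.7% of all genes were lower. Against shallow cells of at least 2%, 5 of 82 were lower (median -0.19), where 7.40% of all genes were lower, namely Atp5j, Atp5k, Sdhb, Uqcrq and Ndufb2. Of these shallow cells 46.7%, 37.8% and 65.3% in hashtags 1, 2 and 3 also passed another gate, against 7.63%, 8.55% and 21.5% of those under 2%. Without such barcodes 27 of 83 members were lower against shallow cells of at least 2% (median -0.55) and 73 of 84 against those under 2% (median -0.90). Over all genes, 405 of 7317 and 1718 of 7122 were lower in the same fits. The mitochondrial genes chose the split, so their fold changes in it are not read as a result. Of 88 members with at least 10 UMIs in deep cells, nuclear only, 85 had a higher level per nuclear-encoded UMI in the kind with few mitochondrial UMIs and 41 were over 2 times higher, with a median ratio of 1.96. The ratio was 3.08 for Sdhb, 2.99 for Atp5j and 2.70 for Uqcrq, and 1.11 for Cox4i1, 0.97 for Cox6a1 and 0.83 for Ndufa13. No such ratio over all genes is given here, so these counts do not set the members apart from other genes. Without a limit on mitochondrial UMIs in the full comparison, 0 mitochondrial genes were higher in deep cells and the median was -1.04.

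**Figure D3:**
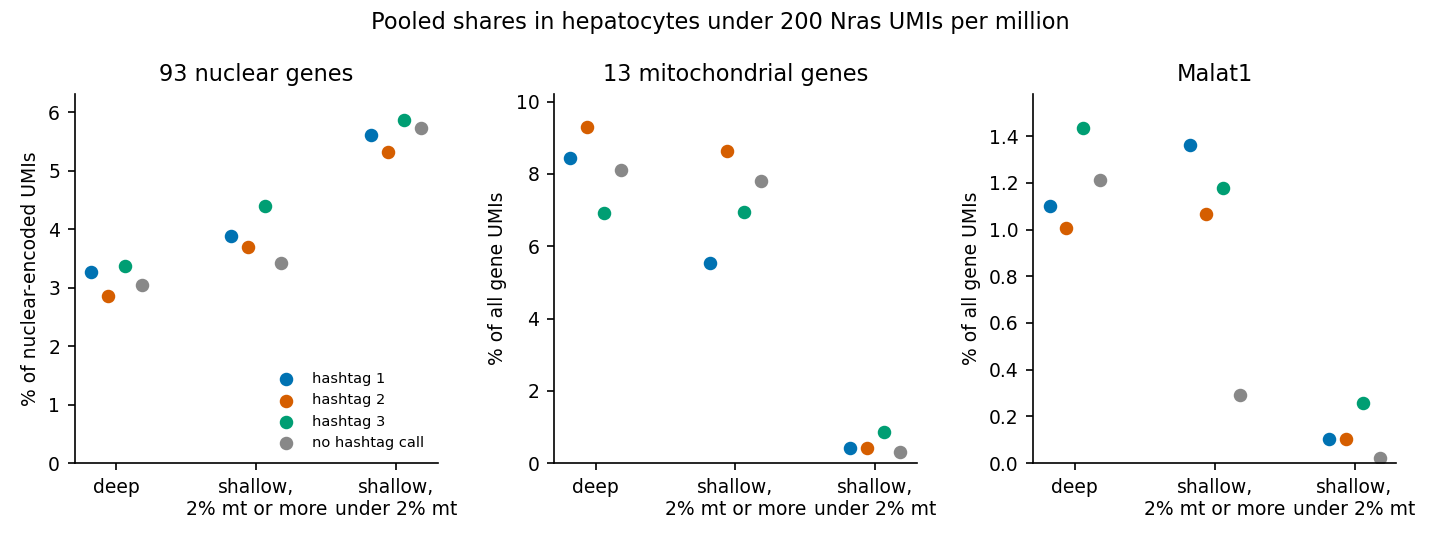
Pooled shares in hepatocytes under 200 Nras CPM, for deep cells and both kinds of shallow cells: nuclear members (percent of nuclear-encoded UMIs), mitochondrial genes and Malat1 (both percent of all gene UMIs). Each point is 1 hashtag or the barcodes without a call; the nuclear share exceeds 5% in every group of shallow cells under 2% mitochondrial UMIs and is under 3.4% in every deep group.

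The lists around the chain were also compared by depth. In deep cells 10 of 14 TCA cycle genes were lower, as were 6 of 8 electron carriers and entry enzymes, with Etfb (log2 fold change -1.30), Etfa (-1.18) and Cycs (-0.73) among them, while Gpd2 (0.94) was higher. Of 77 mitochondrial ribosomal protein genes 36 were lower and 0 higher, and of 11 biogenesis genes none passed in either direction (range -0.64 to 0.27). Of 33 assembly factors outside the rule 6 were lower, and Ttc19 (1.83), for complex III, was higher. Of 8 genes for coupling and exchange, Ucp2 (-1.03) and the carriers Slc25a5 (-0.62) and Slc25a3 (-0.32) were lower in deep cells and Slc25a4 (1.32) was higher. Barcodes that also passed another gate were kept in these sums, and their part in the folds of the lists was not tested.

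Cell types in the sort were compared with hepatocytes by UMI sums per mouse and marker gate; the lists of markers hold no member. The pooled share of the nuclear members among nuclear-encoded UMIs was 3.16%, 2.83% and 5.03% in hepatocytes of hashtags 1, 2 and 3. Endothelial cells had 2.18% (31 cells, hashtag 2) and 2.69% (438 cells, hashtag 3), T or NK cells 2.18% (22 cells) and 2.15% (35 cells) in the same mice, and conventional dendritic cells 1.89% (221 cells, hashtag 1) and 1.74% (359 cells, hashtag 2). In every mouse each of these types lay below the hepatocytes of that mouse. Macrophages (34 barcodes over all mice) had 2.44%, plasmacytoid dendritic cells (15) 2.70%, stellate cells (21) 2.37% and B cells (39) 1.59%, all without a test. The hepatocytes of hashtag 3 were mostly shallow, with a median of 2724 UMIs against 12347 and 41434 in hashtags 1 and 2.

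**Figure D4:**
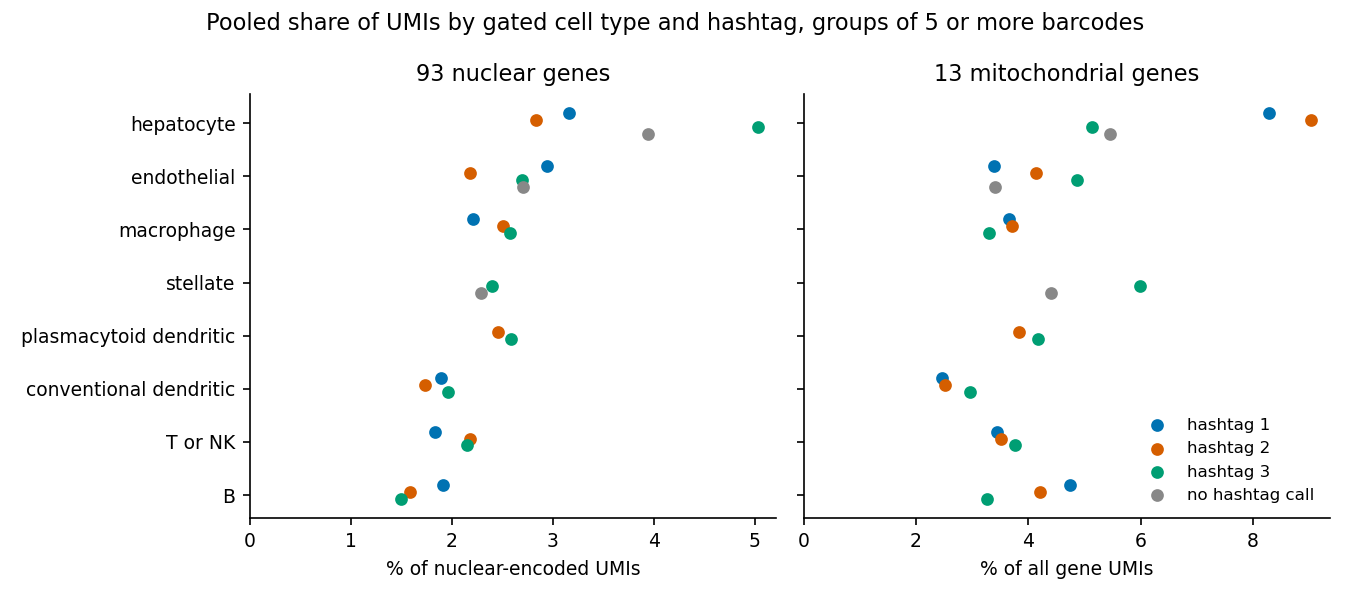
Pooled share of the nuclear members (left, percent of nuclear-encoded UMIs) and of the mitochondrial genes (right, percent of all gene UMIs) by gated cell type. Each point is 1 hashtag or the barcodes without a call with at least 5 barcodes; within each hashtag the hepatocyte point lies above those of the conventional dendritic and T or NK cells in both plots.

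The fold changes against hepatocytes depended on the scaling, since TMM, the usual edgeR factor, moved the median of all genes from 0.71 to 0.01 on the log2 scale in endothelial cells, from -0.18 to -0.63 in T or NK cells and from -0.49 to -0.21 in conventional dendritic cells. Both scalings are therefore given. In endothelial cells 73 of 84 nuclear members were lower with TMM (edgeR, median log2 fold change -1.35, 24.6% of all genes lower) and 34 per nuclear-encoded UMI without TMM (median -0.64, 13.1% of all genes lower). In T or NK cells the counts were 58 (median -1.32, 15.9% of all genes lower) and 24 (median -0.86, 9.93% of all genes lower). In conventional dendritic cells they were 38 (median -0.69, 31.5% of all genes lower) and 61 (median -0.96, 39.7% of all genes lower). Of the mitochondrial genes, 12, 11 and 12 of 13 were lower with TMM and 6, 9 and 12 without. With cells of 3000 to 20000 UMIs, where no T or NK sum was left, 0 mitochondrial genes were lower in endothelial (median -0.66) and 0 in conventional dendritic cells (median -0.29), also at an unadjusted p under 0.05 (edgeR), while 75 and 47 nuclear members were. Of all 8943 genes tested there, 1956 and 1946 were lower. No nuclear member was higher in any of the 3 types by either scaling. With TMM but without hashtag 3, the nuclear counts were 46 in endothelial and 24 in T or NK cells, and without hashtag 1 the count was 10 in conventional dendritic cells. Over all genes these fits called 1080 and 693 of 8199, and 1749 of 9507, lower.

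In conventional dendritic cells 25 of 36 complex I members were lower with TMM and 35 of 36 without. Of 8 complex I assembly factors, 6 were lower with TMM and 7 without. In complex IV 1 of 12 was lower with TMM and 4 without, and in complex V 1 of 15 and 6. Over all genes 31.5% were lower with TMM and 39.7% without. Ndufs7, a core subunit near the ubiquinone site, had 75.1 and 67.7 CPM in dendritic cells and 241 and 230.4 CPM in hepatocytes of hashtags 1 and 2 (log2 fold change -1.64 with TMM, edgeR, adjusted p = 0.00062). Ndufs3, also a core subunit, had a fold change of -1.58, and Ndufa6 of -1.57. Cox4i1 had 997 and 964 CPM against 1418 and 1354 CPM (-0.37 with TMM, -0.65 without), and Cox7b 413 and 409 CPM against 474 and 392 CPM, so the latter overlapped. Whether the complexes differ from each other in this contrast was not tested.

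In the mitochondrial transcripts themselves, conventional dendritic cells differed in composition from hepatocytes pooled over depth. mt-Co1 made up 22.6% and 22.7% of the mitochondrial UMIs in hashtags 1 and 2, against 16.3% and 16.5% in hepatocytes of the same mice. mt-Cytb made up 5.55% and 5.62% against 10.9% and 10.8%. mt-Nd1 made up 3.66% and 3.96% against 5.95% and 6.03%. Shallow hepatocytes of hashtags 1 and 2 with little Nras lay nearer to the dendritic values. They had 21.6% and 20.2% mt-Co1, 6.65% and 7.54% mt-Cytb, and 3.59% and 4.27% mt-Nd1. Shallow hepatocytes of hashtag 3 had 14.8%, 8.89% and 5.02% of these genes. Of the shallow barcodes in these sums, 22.8%, 22.8% and 54.3% in hashtags 1, 2 and 3 also passed another gate. The part of such barcodes in the composition was not tested. In endothelial cells mt-Co1 was at 16.6% and 15.9%, against 16.5% and 15.6% in hepatocytes of hashtags 2 and 3.

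In T or NK cells, Uqcrq had 157 and 281 CPM in hashtags 2 and 3 against 640 and 1598 CPM in hepatocytes (log2 fold change -2.76 with TMM and -2.30 without). Ndufc1 had 8 UMIs in both sums together (24.1 and 54.5 CPM, against 168 and 406 CPM), and Ndufaf6 had 0 UMIs, so its fold change is not given. Cox7a2l had 675 and 663 CPM against 386 and 478 CPM in hepatocytes, and did not pass the test (log2 fold change 0.15 with TMM and 0.61 without). In endothelial cells Ndufa6 had 265 and 321 CPM against 520 and 935 CPM (log2 fold change -2.02 with TMM and -1.29 without), Sdhd 44.2 and 137 CPM against 152 and 358 CPM, and Atp5g1 236 and 478 CPM against 490 and 1306 CPM. Cox6a1 had 273 and 255 CPM against 246 and 270 CPM, a log2 fold change of -0.74 with TMM and -0.01 without. The mitochondrial gene mt-Nd6 was not lower in any of the 3 types. In endothelial cells its fold change was positive, at 0.56 with TMM and 1.27 without, the latter past the threshold (edgeR, adjusted p = 0.020). It made up 0.089% and 0.146% of mitochondrial UMIs in endothelial cells of hashtags 2 and 3. In hepatocytes of these mice with little Nras it made up 0.053% and 0.102% in shallow and 0.020% and 0.029% in deep cells. Of these shallow barcodes 22.8% and 54.3% also passed another gate, as did 1.19% and 50% of the deep ones. The part of such barcodes in these values was not tested.

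Some subunits have isoforms of restricted expression, and most of these were at or near 0 in hepatocytes. Cox4i2, Cox7b2 and Cox8b had 6, 1 and 1 UMIs in 8061 hepatocyte barcodes that passed no other gate, and Cox6b2 and Cox7a1 stood at 6.14 and 4.08 CPM. Cox6a2, the isoform of subunit 6a known from heart and skeletal muscle, was found almost wholly in plasmacytoid dendritic cells (gene at chr7:128205435-128206387, minus strand, mm10). Their 15 barcodes held 117 Cox6a2 UMIs, or 1558 CPM (95% Poisson interval 1288 to 1867), against 12 UMIs of Cox6a1 (160 CPM). By hashtag there were 9 UMIs in 3 barcodes of hashtag 1, 55 in 6 of hashtag 2, 43 in 5 of hashtag 3 and 10 in 1 without a call. Over the whole library 141 of 159 Cox6a2 UMIs (88.7%) lay in the 24 barcodes that passed the plasmacytoid gate, alone or with another. Hepatocyte barcodes of 1 hashtag or no call held 0 Cox6a2 UMIs in 7965 barcodes, which allows a share of up to 0.0377% of cells with a UMI, and the 10 UMIs seen in hepatocyte barcodes were all in the 96 called as hashtag doublets.

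Ndufa4l2, a relative of Ndufa4 known to be induced by hypoxia, had 9 UMIs in 21 stellate barcodes, or 80.5 CPM (95% Poisson interval 36.8 to 153), against 2.06 CPM in hepatocytes. Of these 9, 7 lay in 2 barcodes without a call. Ndufa4 itself stood at 644 CPM in stellate cells and 1066 CPM in hepatocytes. All intervals cover counting error only.

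**Figure D5:**
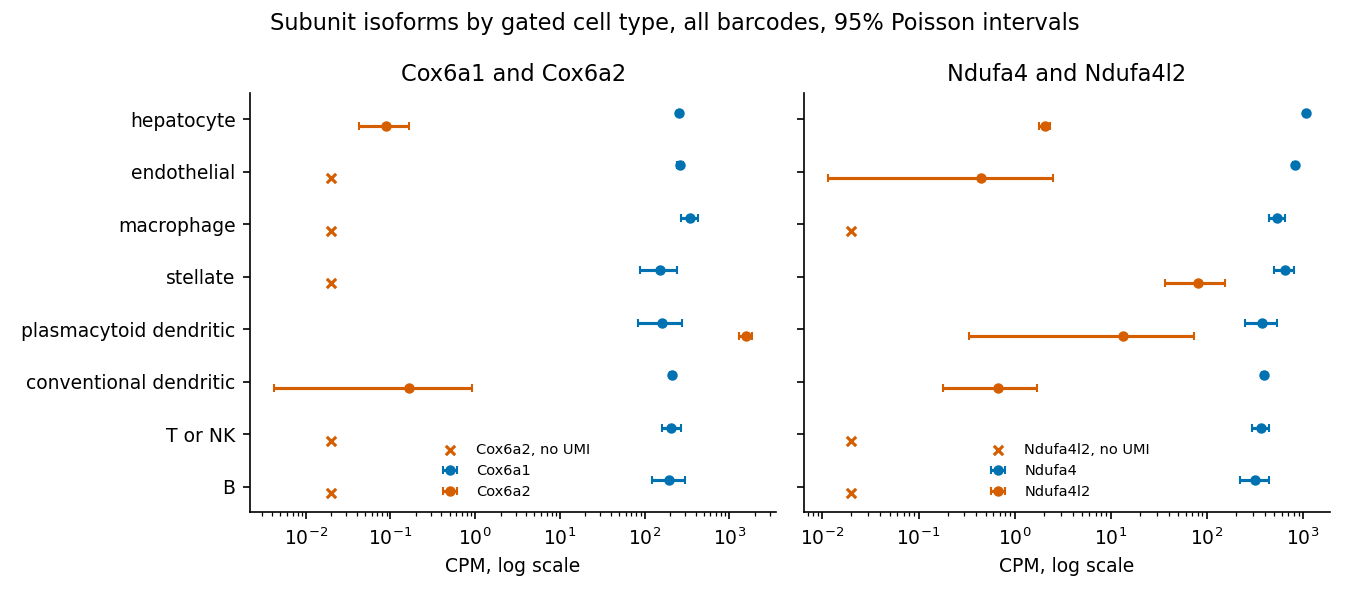
Level of Cox6a1 and Cox6a2 (left) and of Ndufa4 and Ndufa4l2 (right) by gated cell type over all barcodes, in CPM on a log axis, with 95% Poisson intervals; crosses at the left mark types with no UMI. Cox6a2 reaches 1558 CPM in plasmacytoid dendritic cells and is under 1 CPM or without a UMI in the other types shown.

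Among genes around the chain, Ucp2, an inner-membrane carrier, was higher than in hepatocytes in all 3 tested types, with log2 fold changes of 1.70 in endothelial, 3.10 in T or NK and 4.90 in conventional dendritic cells (edgeR with TMM, adjusted p = 0.0044, 0.00051 and 5e-06). Conventional dendritic cells were also higher in Cs (1.22), the first enzyme of the TCA cycle, and Atpif1 (1.13), an inhibitor of ATP synthase. Of 77 mitochondrial ribosomal protein genes 62 were lower in endothelial, 37 in T or NK and 35 in conventional dendritic cells with TMM, and 25, 15 and 55 without.

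The NRAS forms were not tested against each other, with 1 control mouse and 2 conflicting keys. At baseline Nras the nuclear share in deep hepatocytes was 3.27% in hashtag 1 (95% Poisson interval 3.25% to 3.28%), 2.86% in hashtag 2 (2.85% to 2.87%) and 3.37% in hashtag 3 (3.31% to 3.42%). The log2 ratio of the NRAS(G12V) mean to NRAS(G12V/D38A) was -0.07 with the deposited pairing and -0.14 with that in the methods. In either pairing both NRAS(G12V) mice lay further apart from each other than their mean lay from the control.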

How the data were processed

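Gene counts came from 1 pooled 10x 3′ (v3) library of hashtagged, mVenus-sorted liver cells and hashtag counts from a second library. The authors deposited raw UMI counts per gene and barcode, made with Cell Ranger on mm10 (version 2.1.1 in the submitters' processing notes, matrix header 3.0.2), and hashtag UMI counts from CITE-seq-Count with no mismatch allowed. The Nras row was kept out of sums and library sizes and used only to rank cells. The suspension was loaded on 2 lanes that the barcodes do not tell apart.

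Barcodes were assigned to mice with HTODemux (Seurat 5.3.0, quantile 0.99; 271 barcodes were called doublets and left out of tests). No other doublet caller was run. Another cell type needed at least 2 of its markers and 0.1% of UMIs. UMI sums per mouse and class were fitted over all genes with at least 10 CPM in 2 sums (edgeR 4.0.16, glmQLFit and glmQLFTest, TMM, mouse as a block because same-numbered sums come from the same animal). Sums under 5 cells (20 for cell types) were left out. Each mouse is 1 animal, and the 7 Nras sums leave 2 residual degrees of freedom, so the spread is borrowed across genes. DESeq2 1.42.0 was an alternative. The fits were tested on simulated counts with known changes. These changes were larger than the fold of any member at high Nras, so they do not show how well folds of that size are found.

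The members, lists, tests and named genes were chosen with earlier results of these data known. Named were the mitochondrial genes, core subunits, isoform sets and, in each comparison, the 6 nuclear members of largest fold among those past the threshold, of 1 direction in every mouse and of at least 10 CPM in 1 sum; 1 gene so named is not reported here. Fewer cells of a type and less RNA per cell cannot be told apart in shares of UMIs. The depth, 142072118 UMIs in all, limits members of low level.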

Additional observations from a re-analysis of the deposited data

Results flagged for a closer look

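Hashtags 1 and 2 belong to different groups under the deposited key and to the same group under the methods. In 4 members the log2 ratio of high to baseline Nras had opposite signs in these 2 mice, with 95% counting intervals that did not reach 0. Such intervals leave out the spread between mice, and the difference was not tested. The log2 ratio of Cox7b was -0.20 in hashtag 1 and 0.10 in hashtag 2, a difference of 0.30. That of Cox6b1 was -0.18 and 0.09, a difference of 0.27. That of Atp5b was -0.20 and 0.08, a difference of 0.28. That of Cox4i1 was -0.09 and 0.03, a difference of 0.12.

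Some signals lay in barcodes that entered no test. The nuclear members made up 5.73% of nuclear-encoded UMIs in shallow hepatocyte barcodes without a hashtag call and under 2% mitochondrial UMIs. Cox6a2 stood at 1558 CPM in plasmacytoid dendritic barcodes. Ndufa4l2 stood at 80.5 CPM in stellate barcodes.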

How the results depend on the processing

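At high Nras the count of nuclear members lower, 18, was 9 with DESeq2, 11 with each cell thinned to 10000 UMIs, 28 with high Nras set at 3000 CPM and 28 without barcodes of another gate, the last chosen after seeing the data. Over all genes 632 of 7037, 698 of 7472, 1429 of 7063 and 1383 of 6981 were lower, in the same order. The nuclear count was within 1.5 times under the other alternatives, and the nuclear median kept its sign in all. Of the 6 named nuclear members, Ndufa6 lost its call in 1 alternative and the others kept theirs in all 16 with a test. The count of mitochondrial members lower, 2, was 0 with DESeq2, with cells of at least 1000 UMIs, with thinning, with high Nras at 3000 CPM, with cells ranked by mVenus and with the gate at 0.5%, 1 with no filter on low counts, 9 with a mitochondrial limit of 50% and 13 with no limit. With cells of at least 1000 UMIs, mVenus ranks, the gate at 0.5% and no filter, 1176 of 8048, 1165 of 7043, 1064 of 7102 and 1741 of 17690 genes were lower. Mice were the replicate block, since each gave sums at several levels. With no replicate block 22 nuclear and 0 mitochondrial members were lower, where 968 of all 7037 genes were lower. Without hashtag 3 the counts were 21 and 2, where 1238 of all 6839 genes were lower. Without hashtag 1 or 2 no residual degree of freedom was left, so only values were had (median -0.17 and -0.30).

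For deep against shallow cells, leaving out 1 mouse gave 30 to 60 nuclear members lower (59 in all) and 8 to 12 mitochondrial members higher. Over all 6888 to 7310 genes tested in these fits, 560 to 1186 were lower and 619 to 1573 higher. The gate at 5% gave 0 and 2, and shallow cells of at least 2% mitochondrial UMIs gave 5 and 2, or 27 and 2 without barcodes of another gate, all chosen after seeing the data. With no mitochondrial limit 0 mitochondrial members were higher, and their median turned from 1.31 to -1.04. The limit is set on the same genes, and the part of the barcodes it removed was not tested. For cell types, library sizes over nuclear-encoded UMIs without TMM gave 34 nuclear members lower in endothelial, 24 in T or NK and 61 in conventional dendritic cells, and leaving out 1 mouse gave 46 to 63, 24 to 42 and 10 to 40. Over all 8199 to 9507 genes tested with 1 mouse left out, 1080 to 1881, 693 to 1294 and 1749 to 2855 were lower, in the same order. Leaving out hashtag 2 gave no test there. With cells of 3000 to 20000 UMIs no T or NK sum was left, and 0 mitochondrial members were lower in the other types. In sums of 20 to 35 cells low members had few UMIs, and a member not called there may still differ.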
